A study of Mus musculus with 24 samples.

Results

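The genes described here are 9 genes of vascular lipid uptake and transport: Cd36, Scarb1, Vldlr, Gpihbp1, Lpl, Fabp4, Fabp5, Pltp and Abca1. They were taken by symbol from a table of 54418 genes, and all 9 had enough counts to be among the 19050 genes tested. The study sequenced RNA of mouse intestinal stroma, sorted as Epcam- cells to remove epithelium and as CD45- cells to remove leukocytes. RNA was purified on RNeasy columns, and SMART-Seq v4, which keeps no strand information, gave 24 libraries.

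The 8 groups of 3 libraries were set by tissue, by the endothelial protein CD31 (gene Pecam1) and by GFP from an Rspo3 transgene, Rspo3 being the gene of a secreted enhancer of Wnt signaling. They were colon CD31+Rspo3+, CD31+Rspo3-, CD31-Rspo3+ and CD31-Rspo3- cells, and the same 4 populations of the small intestine. All mice were C57Bl6 and 8 to 12 weeks old, so that every group shared strain, age range and the reporter. Whether the 3 libraries of a group are separate animals is not stated, so a p-value reflects the spread of these libraries alone, and that spread may be technical.

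Triglyceride-rich lipoproteins are unloaded at the capillary wall. Lipoprotein lipase (Lpl), made by cells of the tissue, is carried across the endothelium and held at the luminal face by Gpihbp1, and the fatty acids it frees are taken up with the help of Cd36 and bound inside the cell by Fabp4 and Fabp5. Vldlr binds whole lipoproteins, Scarb1 takes up cholesteryl ester from HDL, Pltp moves phospholipid between lipoproteins, and Abca1 exports cholesterol and phospholipid to lipid-poor apolipoprotein A-I. In the intestine, absorbed fat leaves the villus in chylomicrons through lymphatic capillaries.

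The RefSeq promoter table of GRCm38.p6 held a start of 4 members, Cd36, Vldlr, Pltp and Abca1. The 250 bases before that start are printed for Cd36 and Pltp, whose RNA was lower in CD31+Rspo3+ than in CD31+Rspo3- cells, and for Abca1, whose RNA did not pass that test. The windows are chr5:17835897-17836146, chr2:164857709-164857958 and chr4:53159896-53160145, all on the minus strand and printed 5′ to 3′ in the direction of the gene. The Cd36 window lies inside the annotated gene, which runs from 17781690 to 17888801. Whether the counted Cd36 RNA began at that start was not tested. Capitals mark matches to CCAAT, to GGGCGG (a GC box), to TATAAA, or to the LXR direct repeat 4, on either strand.
Cd36: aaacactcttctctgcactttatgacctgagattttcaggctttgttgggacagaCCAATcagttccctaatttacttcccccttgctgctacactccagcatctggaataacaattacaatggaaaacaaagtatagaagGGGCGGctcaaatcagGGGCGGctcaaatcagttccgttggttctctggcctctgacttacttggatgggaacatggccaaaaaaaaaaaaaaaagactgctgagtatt
Pltp: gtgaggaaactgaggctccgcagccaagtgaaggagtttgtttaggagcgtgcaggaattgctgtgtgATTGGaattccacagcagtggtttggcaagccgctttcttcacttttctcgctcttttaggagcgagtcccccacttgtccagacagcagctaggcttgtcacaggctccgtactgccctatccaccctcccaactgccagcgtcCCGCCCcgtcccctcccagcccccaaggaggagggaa
Abca1: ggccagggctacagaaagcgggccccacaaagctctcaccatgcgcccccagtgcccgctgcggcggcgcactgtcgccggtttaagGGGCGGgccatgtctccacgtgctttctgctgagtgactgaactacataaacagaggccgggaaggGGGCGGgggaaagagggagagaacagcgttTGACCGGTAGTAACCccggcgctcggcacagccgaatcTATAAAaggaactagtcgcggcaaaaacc
Cd36 had 1 CCAAT match and 2 GC boxes, Pltp had 1 of each on the opposite strand, and Abca1 had 2 GC boxes and a TATAAA match 29 to 24 bases before the start. Among 32851 promoters of the same length, 33.8% held CCAAT, 32.7% held GGGCGG and 12.4% held TATAAA. For the LXR direct repeat 4, a motif bound by the oxysterol-sensing LXR receptors, only 1 spelling was searched. It matched on the opposite strand 67 to 53 bases before the Abca1 start, and all but the 5 middle bases were fixed. Of the promoters, 0.0457% held that spelling, which is not the share holding LXR repeats in general. How the spelling was chosen is not stated, so no conclusion is drawn from the match or its share. A PPAR direct repeat 1, an RBPJ site and a sterol element were also searched, without a match in the printed windows. A match describes letters and not a bound site.

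Library totals of estimated counts ran from 8462041 to 29214487, with a median of 17881736. Levels are given as CPM, in which each count is divided by its library's TMM-adjusted total, and levels of different genes are compared only as TPM, which also divides by transcript length. Pecam1 stood at 347 to 1486 CPM in CD31+ libraries and 8.18 to 43.9 CPM in CD31- libraries, and Rspo3 at 139 to 449.9 CPM in Rspo3+ libraries and 11.1 to 24.1 CPM in Rspo3- libraries. The Rspo3 sign went with vessel type in CD31+ cells. Over 15 lymphatic markers, colon CD31+Rspo3+ libraries summed to 41639 to 52216 CPM, against 2366 to 2917 CPM in CD31+Rspo3- libraries, and small intestinal ones to 32297 to 36274 CPM, against 3742 to 6751 CPM. Over 20 blood endothelial markers the order was the opposite, 2668 to 3183 CPM in colon CD31+Rspo3+ libraries against 22573 to 29995 CPM in CD31+Rspo3- libraries, and 2430.5 to 2968 CPM against 19004 to 23091 CPM in the small intestine. Ccl21a and Mmrn1 held the most counts of the 15 lymphatic markers in every CD31+Rspo3+ library. Of that list Gja4 went the other way, with 957, 1181 and 1009 counts in colon CD31+Rspo3+ libraries, against 6074, 5340 and 4417 in CD31+Rspo3- libraries. In small intestine Gja4 had 1598, 2013 and 1024 counts against 3974, 3157 and 3039. Nts overlapped there, at 1218, 1364 and 567 counts against 968, 1615 and 1099.

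Some libraries stood apart from the others of their group. Library 3 of colon CD31-Rspo3+ cells summed to 29588 CPM over 10 leukocyte markers, with 1509 and 1230.0 CPM in the others. Library 3 of colon CD31+Rspo3- cells summed to 11184 CPM over 14 fibroblast markers, with 2395 and 3128 CPM in the others. Small intestinal CD31-Rspo3- libraries summed to 20793 to 39304 CPM over 16 epithelial markers although the gate took Epcam- cells, against 219 to 765 CPM in CD31-Rspo3+ libraries of that tissue. Over 12 adipocyte markers, colon CD31+Rspo3+ libraries summed to 7.80 to 13.9 CPM, against 112 to 130.5 CPM in CD31+Rspo3- libraries, and small intestinal ones to 12.9 to 16.7 CPM, against 69.6 to 99.7 CPM. In CD31-Rspo3+ libraries the sum was 9.64 to 12.5 CPM in colon and 12.0 to 18.5 CPM in small intestine, against 11.9 to 23.8 CPM in colon and 109 to 221 CPM in small intestinal CD31-Rspo3- libraries. Most of the high sums came from Lipe in CD31+Rspo3- libraries and from Cidec (109 ± 52.9 CPM, SD) in small intestinal CD31-Rspo3- libraries, while Adipoq, which defines adipocytes, was at most 0.194 CPM in every library and Lep was at 0. The part of the adipocyte markers in the results was not tested.

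**Figure D1:**
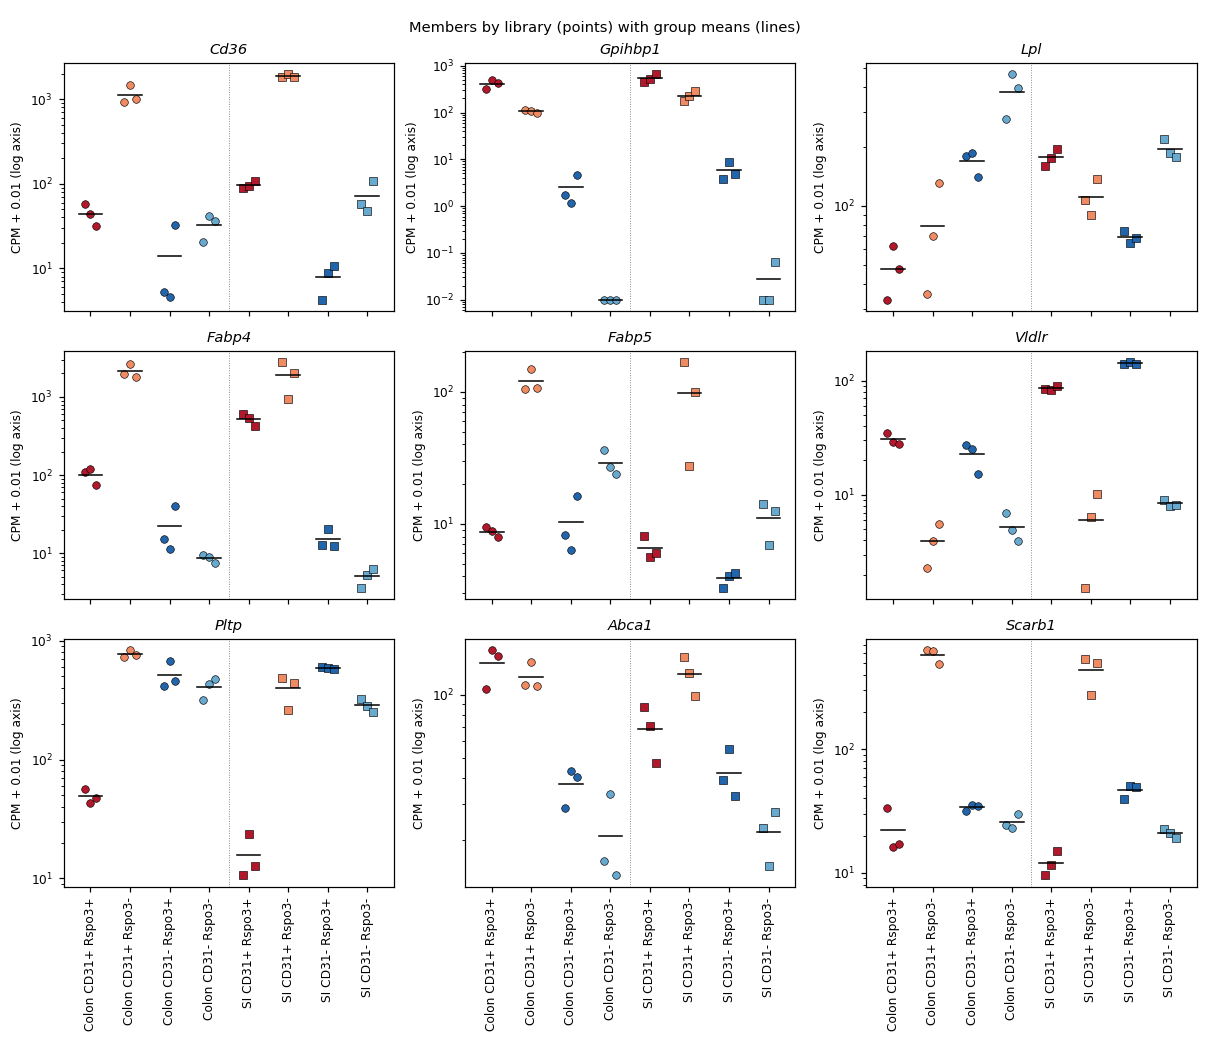
CPM plus 0.01 of each gene in each of 24 libraries (points) with the mean of each group (lines) on log axes, colon groups left of the dotted line and small intestinal (SI) groups right of it. Fabp4, Fabp5 and Scarb1 have their 2 highest group means in CD31+Rspo3- libraries of the 2 tissues, as has Cd36, while Gpihbp1 is highest in CD31+Rspo3+ libraries and Vldlr in Rspo3+ libraries of either CD31 sign.

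In CD31+ cells, 7 of the 9 genes differed by Rspo3 sign in each tissue. Cd36, Scarb1, Fabp4, Fabp5 and Pltp were lower in CD31+Rspo3+ cells, while Gpihbp1 and Vldlr were higher, and Lpl and Abca1 did not pass the test. Libraries did not overlap for 7 of the 9 in colon and 9 in small intestine. Of all genes tested in colon, 23.1% passed, 9.52% were higher, 13.6% were lower and 40.4% had no overlap between libraries. The same shares in small intestine were 20.1%, 9.23%, 10.8% and 31.7%. The median log2 difference of the 9 genes was -3.79 in colon, against -0.0548 for all genes tested, and -1.89 in small intestine, against 0 for all genes. In CD31+ cells the Rspo3 sign and the vessel type cannot be told apart, and in bulk samples neither can fewer cells of a type and less RNA per cell. Pericyte markers moved too, with sums over 10 genes of 196 to 206 CPM in colon CD31+Rspo3+ libraries against 872 to 1160.3 CPM in CD31+Rspo3- libraries. Of these markers Kcnj8 went the other way in colon, at a mean of 76.3 CPM against 46.1 CPM, while the rest averaged lower. In small intestine the sums were 385 to 481 CPM against 446 to 797 CPM, but the 10 genes moved in opposite directions. Kcnj8 averaged 338 CPM in small intestinal CD31+Rspo3+ cells against 22.8 CPM in CD31+Rspo3- cells, and Abcc9 29.7 against 12.4 CPM. The other pericyte markers averaged lower there, such as Rgs5 at 13.7 against 241 CPM and Pdgfrb at 10.1 against 72.2 CPM. The part of the pericyte markers in the result was not tested.

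Cd36, the fatty acid translocase, had 57.8, 43.5 and 31.5 CPM in colon CD31+Rspo3+ libraries, against 928, 1453 and 1011 CPM in CD31+Rspo3- libraries. Small intestinal Cd36 stood at 88.9, 93.2 and 108 CPM in CD31+Rspo3+ libraries, against 1812, 1960.2 and 1823 CPM in CD31+Rspo3- libraries. Every CD31+Rspo3+ library lay far below every CD31+Rspo3- library of its tissue. The log2 difference was -4.67 ± 0.61 (SE, adjusted p = 8.77e-06) in colon and -4.27 ± 0.59 (adjusted p = 2.22e-05) in small intestine, with 3 libraries a group here and throughout.

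Scarb1, the HDL receptor, had 33.4, 16.1 and 17.0 CPM in colon CD31+Rspo3+ libraries, against 636, 624 and 492 CPM in CD31+Rspo3- libraries. The small intestine gave 9.501, 11.5 and 15.1 CPM in CD31+Rspo3+ libraries, against 536, 277 and 497 CPM in CD31+Rspo3- libraries. The groups did not overlap in either tissue, although library 2 of small intestinal CD31+Rspo3- cells was low within its group. The log2 differences were -4.72 ± 0.30 (adjusted p = 1.88e-09) in colon and -5.19 ± 0.30 (adjusted p = 7.97e-10) in small intestine.

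Fabp4 and Fabp5 are small cytosolic fatty acid carriers, and their genes lie close together on chromosome 3. Fabp4 had 109, 119 and 74.8 CPM in colon CD31+Rspo3+ libraries, against 1947, 2662 and 1828 CPM in CD31+Rspo3- libraries. Small intestinal Fabp4 stood at 599, 530.1 and 427 CPM in CD31+Rspo3+ libraries, against 2789.8, 929 and 2049 CPM in CD31+Rspo3- libraries. The groups did not overlap in either tissue, but small intestinal CD31+Rspo3+ libraries held more Fabp4 than colon ones, and library 2 of small intestinal CD31+Rspo3- cells was low within its group. Fabp4 fell by 4.41 ± 0.45 on the log2 scale in colon (adjusted p = 4.81e-07) and by 1.89 ± 0.40 in small intestine (adjusted p = 0.00184). The difference between these, colon minus small intestine, was -2.52 ± 0.56 (adjusted p = 0.0203), and Fabp4 was the 1 member of 9 to pass that test, with 1.93% of all genes passing. It lost that call without library 1 of small intestinal CD31+Rspo3+ cells (adjusted p = 0.0509), library 2 of colon CD31+Rspo3- cells (0.0553) or library 3 of colon CD31+Rspo3+ cells (0.0699).

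Fabp5 had 9.38, 8.82 and 7.96 CPM in colon CD31+Rspo3+ libraries, against 105, 149.5 and 106 CPM in CD31+Rspo3- libraries. Small intestinal libraries gave 8.03, 5.58 and 6.05 CPM in CD31+Rspo3+ libraries, against 168, 27.6 and 100.3 CPM in CD31+Rspo3- libraries. Library 2 of the small intestinal CD31+Rspo3- group was again low, yet above every CD31+Rspo3+ library. The log2 differences were -3.79 ± 0.48 (adjusted p = 6.32e-06) in colon and -3.91 ± 0.48 (adjusted p = 5.57e-06) in small intestine. Of the 31-base stretches of Fabp5 transcripts, 9.27% also occur in other genes, and the gene that shares most, Gm6166, held 1 count over all libraries.

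Pltp, the phospholipid transfer protein, had 56.5, 42.8 and 47.2 CPM in colon CD31+Rspo3+ libraries, against 724, 835 and 764 CPM in CD31+Rspo3- libraries. Small intestinal Pltp stood at 10.6, 23.5 and 12.8 CPM in CD31+Rspo3+ libraries, against 489, 263 and 439.6 CPM in CD31+Rspo3- libraries. The groups were far apart in both tissues, with log2 differences of -3.99 ± 0.30 (adjusted p = 1.00e-08) in colon and -4.67 ± 0.31 (adjusted p = 2.45e-09) in small intestine. Pltp overlaps Ctsa on the opposite strand and shares 13.9% of its 31-base stretches with Ctsa and no other gene. Ctsa held 87656 counts over all libraries, beside 173906 for Pltp. Without strand, reads of the shared stretch cannot be told apart, and Pltp values are uncertain to that extent.

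Gpihbp1, the luminal anchor of lipoprotein lipase, ran the other way. It had 316, 504 and 418 CPM in colon CD31+Rspo3+ libraries, against 111, 109.6 and 100.02 CPM in CD31+Rspo3- libraries. Small intestinal Gpihbp1 stood at 441, 519 and 654 CPM in CD31+Rspo3+ libraries, against 180.1, 221 and 283 CPM in CD31+Rspo3- libraries. Every CD31+Rspo3+ library was above every CD31+Rspo3- library of its tissue. The log2 difference was 1.95 ± 0.37 (adjusted p = 0.000696) in colon and 1.24 ± 0.36 (adjusted p = 0.0197) in small intestine. The small intestinal call was lost without library 1 (adjusted p = 0.0839) or library 2 (0.063) of CD31+Rspo3- cells, or library 3 of CD31+Rspo3+ cells (0.0767).

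Lpl, the lipase itself, had 33.2, 62.5 and 47.5 CPM in colon CD31+Rspo3+ libraries, against 35.5, 70.0 and 131 CPM in CD31+Rspo3- libraries, and these groups overlapped. Small intestinal Lpl stood at 160.2, 175 and 195 CPM in CD31+Rspo3+ libraries, against 107, 89.8 and 137 CPM in CD31+Rspo3- libraries, without overlap. The log2 differences were -0.72 ± 0.32 in colon (adjusted p = 0.114) and 0.67 ± 0.32 in small intestine (adjusted p = 0.16), neither past the threshold. Without library 1 of colon CD31+Rspo3- cells, in which Lpl was lowest, the colon difference passed at -1.07 (adjusted p = 0.0089). Library 3 of that group, the highest in Lpl, was also the one with the high fibroblast sum, whose part in the value was not tested.

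Vldlr, a receptor for whole triglyceride-rich lipoproteins, had 34.6, 29.3 and 27.8 CPM in colon CD31+Rspo3+ libraries, against 2.30, 3.91 and 5.61 CPM in CD31+Rspo3- libraries. The small intestine gave 84.5, 83.5 and 90.4 CPM in CD31+Rspo3+ libraries, against 1.53, 6.37 and 10.3 CPM in CD31+Rspo3- libraries. The groups were well apart in both tissues, and Vldlr rose by 2.95 ± 0.43 on the log2 scale in colon (adjusted p = 3.14e-05) and by 3.85 ± 0.44 in small intestine (adjusted p = 2.16e-06). Mylip, a ubiquitin ligase that marks lipoprotein receptors such as Vldlr for degradation, averaged 39.4 ± 5.995 CPM in colon CD31+Rspo3+ cells and 139 ± 21.1 CPM in colon CD31+Rspo3- cells (SD), and 18.1 ± 5.54 CPM in small intestinal CD31+Rspo3+ cells and 93.5 ± 17.4 CPM in small intestinal CD31+Rspo3- cells. It fell by 1.82 ± 0.27 in colon (adjusted p = 4.07e-05) and by 2.36 ± 0.28 in small intestine (adjusted p = 2.84e-06) on the log2 scale. In small intestinal CD31- cells Mylip did not run opposite to Vldlr. It had 683, 419 and 323 counts in CD31-Rspo3+ libraries, against 311, 78 and 106 in CD31-Rspo3- libraries. The part of Mylip in the Vldlr result was not tested.

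Abca1, the cholesterol exporter, had 107, 164 and 154 CPM in colon CD31+Rspo3+ libraries, against 111, 144 and 110.2 CPM in CD31+Rspo3- libraries, and the groups overlapped (log2 difference 0.22 ± 0.31, adjusted p = 0.678). Small intestinal Abca1 stood at 87.0, 70.8 and 47.3 CPM in CD31+Rspo3+ libraries, against 151, 127 and 98.7 CPM in CD31+Rspo3- libraries, without overlap. That difference of -0.88 ± 0.32 missed the threshold (adjusted p = 0.0571), and it passed without library 1 of CD31+Rspo3+ cells (0.0489) or library 3 of CD31+Rspo3- cells (0.0462). By DESeq2 size factors, DESeq2, limma voom, limma on log2(TPM + 1) and a fit of only the compared libraries it passed too (adjusted p = 0.0248 to 0.0423). Nr1h3, the gene of LXR alpha, a receptor known to induce Abca1, averaged 95.8 ± 18.4 CPM in colon CD31+Rspo3+ cells and 17.8 ± 1.45 CPM in colon CD31+Rspo3- cells, and 94.0 ± 5.19 CPM in small intestinal CD31+Rspo3+ cells and 32.3 ± 8.54 CPM in small intestinal CD31+Rspo3- cells. It rose by 2.43 ± 0.19 (adjusted p = 1.93e-08) in colon and 1.54 ± 0.19 (adjusted p = 4.04e-06) in small intestine on the log2 scale.

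**Figure D2:**
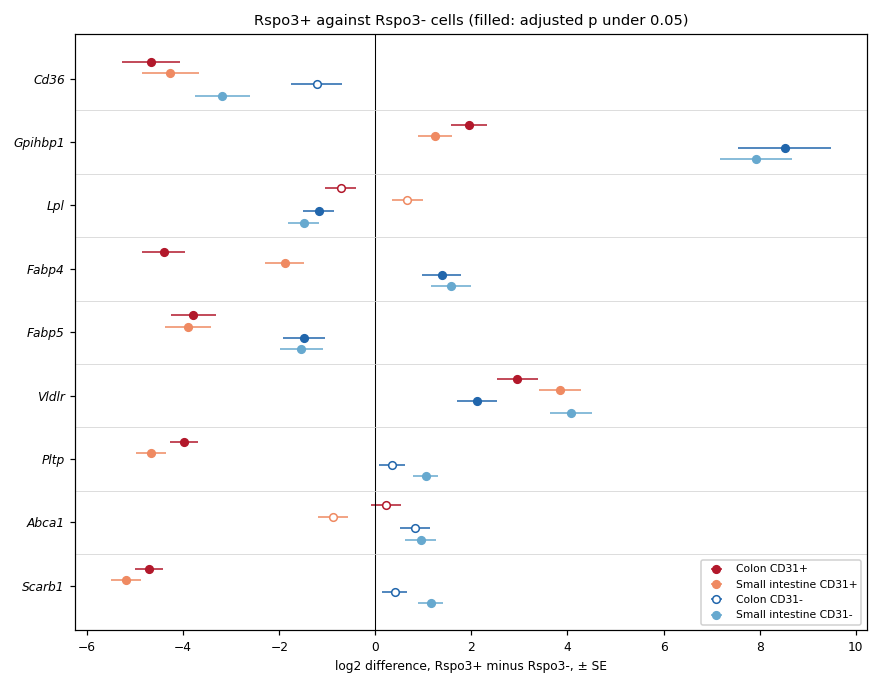
Log2 difference (edgeR, Rspo3+ minus Rspo3-, ± SE) of each gene in CD31+ and CD31- cells of both tissues, filled where the adjusted p was under 0.05. Scarb1 lies at -4.72 and -5.19 in CD31+ cells of colon and small intestine and Vldlr right of 0 in all 4 settings, while the CD31- points of Gpihbp1 depend on a prior count because the Rspo3- groups held 0 and 1 count.

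In CD31- cells the Rspo3 sign went with other changes. In colon 5 of the 9 genes passed, with Gpihbp1, Fabp4 and Vldlr higher and Lpl and Fabp5 lower in CD31-Rspo3+ cells. Of all genes there, 9.14% passed, 4.8% were higher, 4.34% were lower and 25.7% had no overlap between libraries, the last against 6 of the 9. In small intestine all 9 passed, 6 higher and 3 lower, and all 9 were without overlap. Of all genes in that tissue, 30.4% passed, 16.1% were higher, 14.3% were lower and 50.6% had no overlap between libraries. All 9 small intestinal results rest on the CD31-Rspo3- libraries with the high epithelial sums described above, whose part in them was not tested. The median log2 difference of the 9 genes was 0.40 in colon, against 0 for all genes, and 1.05 in small intestine, against 0.108 for all genes.

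Vldlr rose with the Rspo3 sign here too. It had 27.5, 25.2 and 15.4 CPM in colon CD31-Rspo3+ libraries, against 6.93, 4.95 and 3.92 CPM in CD31-Rspo3- libraries. Small intestinal Vldlr stood at 141, 145 and 141 CPM in CD31-Rspo3+ libraries, against 8.999, 8.02 and 8.22 CPM in CD31-Rspo3- libraries. The groups did not overlap, and the log2 differences were 2.11 ± 0.42 (adjusted p = 0.00269) in colon and 4.08 ± 0.44 (adjusted p = 1.39e-06) in small intestine. The difference between them, colon minus small intestine, was -1.97 ± 0.57 (adjusted p = 0.0372), where 8.38% of all genes passed. That call was lost with any library but colon CD31-Rspo3+ library 1 or colon CD31-Rspo3- library 3 left out (adjusted p = 0.0586 to 0.0991). Without both colon libraries 3 it was 0.0813.

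Lpl had 179, 186 and 139 CPM in colon CD31-Rspo3+ libraries, against 275, 466 and 396 CPM in CD31-Rspo3- libraries. Small intestinal Lpl stood at 74.6, 64.4 and 68.3 CPM in CD31-Rspo3+ libraries, against 219, 185 and 178 CPM in CD31-Rspo3- libraries. The groups did not overlap in either tissue, and Lpl fell by 1.17 ± 0.32 (adjusted p = 0.0258) in colon and by 1.49 ± 0.33 (adjusted p = 0.00154) in small intestine on the log2 scale. The colon call was lost without any of CD31-Rspo3+ libraries 1, 2 and 3 or CD31-Rspo3- libraries 2 and 3 (adjusted p = 0.06 to 0.0994). Summed fibroblast markers were higher in CD31-Rspo3+ cells, at 41036 to 74446 CPM against 31466 to 37320.4 CPM in CD31-Rspo3- cells of colon and 105574 to 117128 CPM against 18729 to 25423 CPM in small intestine. Pdgfra, of the same list, went the other way in colon, at a mean of 452 CPM against 601 CPM, while the rest averaged higher. Sums of 12 smooth muscle markers were lower in colon CD31-Rspo3+ libraries, at 752 to 1100.2 CPM against 4253 to 5834 CPM in CD31-Rspo3- libraries, and ran at 1703 to 2339 CPM against 1975 to 2879.9 CPM in small intestine. Pericyte sums were 220.1 to 275 CPM against 489.9 to 797 CPM in colon and 517 to 616 CPM against 499 to 651 CPM in small intestine. The small intestinal sums hid opposite moves, as Rgs5 (262 against 196 CPM) and Pdgfrb (200 against 155 CPM) averaged higher in CD31-Rspo3+ cells. The other pericyte markers averaged lower there, such as Cspg4 at 13.6 against 75.0 CPM and Notch3 at 0.772 against 11.3 CPM. The part of the fibroblast, smooth muscle and pericyte markers in the result was not tested.

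Cd36 had 5.27, 4.53 and 32.2 CPM in colon CD31-Rspo3+ libraries, against 20.4, 42.0 and 36.3 CPM in CD31-Rspo3- libraries. The high CD31-Rspo3+ value belonged to library 3, the one with the high leukocyte sum, in which 12 macrophage markers summed to 1740.0 CPM, with 173 and 132 CPM in the others. Endothelial Flt1 (34.1 CPM, with 15.8 and 8.20 in the others) and Pecam1 (43.9 CPM, with 19.2 and 12.9) were highest in library 3 too. So was epithelial Epcam, at 3113 counts, with 157 and 64 in the others. The part of any of these markers in the Cd36 value was not tested. With library 3 the colon difference was -1.22 ± 0.54 (adjusted p = 0.171), and without it -2.75 (adjusted p = 0.000301). By limma on log2(TPM + 1) it passed with all libraries (0.00726). Small intestinal Cd36 stood at 4.24, 8.69 and 10.5 CPM in CD31-Rspo3+ libraries, against 57.7, 47.6 and 107 CPM in CD31-Rspo3- libraries, and fell by 3.18 ± 0.57 on the log2 scale (adjusted p = 0.000291). Those CD31-Rspo3- libraries carried the epithelial transcripts described above, and the part of these in the result was not tested.

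Fabp4 had 15.2, 11.3 and 39.8 CPM in colon CD31-Rspo3+ libraries, against 9.34, 8.84 and 7.41 CPM in CD31-Rspo3- libraries. Small intestinal Fabp4 stood at 12.6, 20.1 and 12.2 CPM in CD31-Rspo3+ libraries, against 3.60, 5.29 and 6.22 CPM in CD31-Rspo3- libraries. The groups did not overlap, and the log2 differences of 1.38 ± 0.41 (adjusted p = 0.0385) in colon and 1.58 ± 0.42 (adjusted p = 0.00681) in small intestine had the opposite sign to those in CD31+ cells. Summed endothelial markers were higher in CD31-Rspo3+ libraries too. Over 15 pan-endothelial markers the sums were 377 to 468 CPM in colon CD31-Rspo3+ libraries against 134 to 171 CPM in CD31-Rspo3- libraries, and 169 to 221 CPM against 66.9 to 80.3 CPM in small intestine. Tek held the most counts of the 15 in every CD31-Rspo3+ library. In colon CD31-Rspo3+ libraries it had 3347, 4388 and 2765 counts, against 873, 1269 and 758 in CD31-Rspo3- libraries. Clec14a went the other way in colon, with 50, 75 and 103 counts against 345, 538 and 388. Over 20 blood endothelial markers the sums were 1781 to 2238 CPM against 1049 to 1202 CPM in colon. In small intestine they were 1843 to 2175 CPM against 624 to 719 CPM. The part of the endothelial markers in the result was not tested. Without library 3 of colon CD31-Rspo3+ cells the colon Fabp4 difference was 0.64 (adjusted p = 0.304). The call was also lost without library 1 (0.0859), 2 (0.0994) or 3 (0.136) of colon CD31-Rspo3- cells. It was lost as well by limma voom (0.165), by limma on log2(TPM + 1) (0.152) and with only the compared libraries fitted (0.165), and the small intestinal call by limma voom (0.0505).

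Fabp5 had 8.29, 6.36 and 16.3 CPM in colon CD31-Rspo3+ libraries, against 36.0, 27.1 and 23.7 CPM in CD31-Rspo3- libraries, a log2 difference of -1.48 ± 0.44 (adjusted p = 0.0398). The small intestine gave 3.27, 4.02 and 4.23 CPM in CD31-Rspo3+ libraries, against 14.0, 6.86 and 12.5 CPM in CD31-Rspo3- libraries, with -1.54 ± 0.45 (adjusted p = 0.0132). The groups did not overlap, and the sign was that of CD31+ cells. In colon the call was lost without any of CD31-Rspo3+ libraries 1 and 2 or CD31-Rspo3- libraries 1, 2 and 3 (adjusted p = 0.0603 to 0.17). In small intestine it was lost without library 1 of CD31-Rspo3+ cells (0.0557) or library 1 of CD31-Rspo3- cells (0.0538). Limma voom did not call either tissue (adjusted p = 0.12 in colon and 0.126 in small intestine), nor did a fit of only the compared libraries in colon (0.082).

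Gpihbp1 had 1.76, 1.18 and 4.55 CPM in colon CD31-Rspo3+ libraries (108 counts), against 0 counts in all CD31-Rspo3- libraries. It had 3.76, 8.85 and 4.76 CPM in small intestinal CD31-Rspo3+ libraries (356 counts), against 1 count over the 3 CD31-Rspo3- libraries. Taking a floor of 3 counts over the group, the level was at least 56.1-fold higher in colon CD31-Rspo3+ cells, and in the small intestine the ratio was 331, with a 95% interval of 59.0 to 13112. Library 3 of colon CD31-Rspo3+ cells, the one with the high leukocyte sum, held most of the Gpihbp1 counts, and without it 36 counts gave a bound of 30.3-fold. Such floors and intervals cover counting error only. Both fitted differences passed the test (adjusted p = 2.74e-05 in colon and 7.29e-07 in small intestine). The CD31-Rspo3+ level was 0.605% of the CD31+Rspo3+ level in colon (0.356% without library 3) and 1.08% in small intestine. The sum of 15 pan-endothelial markers stood at 7.24% and 3.27%, but Tek held the most counts of the 15 in every CD31-Rspo3+ library. In colon Tek had 3347, 4388 and 2765 counts in CD31-Rspo3+ libraries, against 5639, 4618 and 6036 in CD31+Rspo3+ libraries. Cldn5, another of the 15, had 52, 43 and 134 counts against 8822, 11271 and 11043 in the same colon libraries. The part of endothelial cells in the result was not tested.

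Pltp had 417, 677 and 456 CPM in colon CD31-Rspo3+ libraries, against 314, 428 and 475 CPM in CD31-Rspo3- libraries, with overlap (log2 difference 0.35 ± 0.26, adjusted p = 0.474). Small intestinal Pltp stood at 605, 594 and 583 CPM in CD31-Rspo3+ libraries, against 324, 284 and 253 CPM in CD31-Rspo3- libraries, without overlap (1.05 ± 0.26, adjusted p = 0.00487). Scarb1 had 31.7, 35.1 and 34.9 CPM in colon CD31-Rspo3+ libraries, against 24.4, 22.8 and 29.7 CPM in CD31-Rspo3- libraries, without overlap (0.40 ± 0.26, adjusted p = 0.379). In the small intestine the same HDL receptor was also without overlap, at 39.5, 50.6 and 49.3 CPM in CD31-Rspo3+ libraries, against 22.6, 21.2 and 19.0 CPM in CD31-Rspo3- libraries (1.15 ± 0.26, adjusted p = 0.00198). The tissues were not shown to differ in these, with adjusted p = 0.271 for Pltp and 0.223 for Scarb1.

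Abca1 had 28.5, 42.9 and 40.2 CPM in colon CD31-Rspo3+ libraries, against 15.9, 33.5 and 13.6 CPM in CD31-Rspo3- libraries, with overlap (log2 difference 0.82 ± 0.32, adjusted p = 0.118). Small intestinal Abca1 stood at 39.0, 54.9 and 32.6 CPM in CD31-Rspo3+ libraries, against 23.0, 15.1 and 27.5 CPM in CD31-Rspo3- libraries, without overlap (0.94 ± 0.32, adjusted p = 0.0303). The small intestinal call was lost without any of CD31-Rspo3+ libraries 1, 2 and 3 or CD31-Rspo3- libraries 1 and 2 (adjusted p = 0.0511 to 0.159). The colon difference passed at 1.32 (adjusted p = 0.0132) without library 2 of CD31-Rspo3- cells. With DESeq2 size factors (0.0547) or limma on log2(TPM + 1) (0.0503) the small intestinal call was lost.

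The dependence of the Rspo3 difference on the CD31 sign was tested directly. The difference in CD31+ cells minus that in CD31- cells passed for 6 of 9 genes in colon, all lower, where 17% of all genes passed, and for 7 of 9 in small intestine, 6 lower and 1 higher, where 24.3% passed. Pltp gave -4.34 ± 0.39 in colon (adjusted p = 1.99e-07) and -5.72 ± 0.40 in small intestine (adjusted p = 7.07e-09). Scarb1 gave -5.12 ± 0.38 in colon (adjusted p = 4.45e-08) and -6.34 ± 0.39 in small intestine (adjusted p = 1.80e-09). Lpl was the gene with the higher value, 2.16 ± 0.46 in small intestine (adjusted p = 0.00156). Vldlr did not pass in either tissue, with 0.84 ± 0.57 in colon (adjusted p = 0.353) and -0.23 ± 0.57 in small intestine (adjusted p = 0.838). By limma voom the Fabp5 calls were lost (adjusted p = 0.0706 in colon and 0.189 in small intestine), and on log2(TPM + 1) the colon call of Gpihbp1 was lost (0.639) while Cd36 passed in small intestine (0.0274).

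Comparing CD31+ with CD31- cells, which uses the same libraries as the Rspo3 comparisons, placed the genes by compartment. Among Rspo3+ cells 6 of 9 passed in each tissue, 4 higher and 2 lower in CD31+ cells, with no overlap for 6 in colon and 8 in small intestine. Of all genes, 33.1% passed in colon, 14.9% were higher, 18.2% were lower and 45.2% had no overlap between libraries. In small intestine 36.5% passed, 16.9% were higher, 19.6% were lower and 49.6% had no overlap between libraries. Among Rspo3- cells 8 of 9 passed in colon, 7 higher and Lpl lower, and 6 of 9 in small intestine, all higher, with no overlap for 8 in colon and 7 in small intestine. Of all genes among Rspo3- cells, 32.5% passed in colon, 16.1% were higher, 16.4% were lower and 49.2% had no overlap between libraries. In small intestine 41.6% of all genes passed, 20.1% were higher, 21.6% were lower and 50.6% had no overlap between libraries. The median log2 difference of the 9 genes among Rspo3- cells was 2.53 in colon, against -0.0658 for all genes, and 3.14 in small intestine, against -0.0314.

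Among Rspo3- cells the step between CD31+ and CD31- libraries was steep for Gpihbp1 and Fabp4. Gpihbp1 was at least 2284-fold higher in colon CD31+Rspo3- cells (6809 counts against 0), and the ratio was 13178 in small intestine (9525 counts against 1, with a 95% counting interval of 2365 to 520568). Fabp4 was higher by 7.97 ± 0.53 (adjusted p = 1.29e-09) in colon and 8.58 ± 0.55 (adjusted p = 4.99e-10) in small intestine on the log2 scale. Cd36 was higher by 5.10 ± 0.62 (adjusted p = 3.17e-06) in colon and 4.72 ± 0.61 (adjusted p = 4.13e-06) in small intestine. Scarb1 was higher by 4.51 ± 0.29 (adjusted p = 8.91e-10) in colon and 4.38 ± 0.29 (adjusted p = 8.34e-10) in small intestine. None of these 4 genes overlapped between CD31+ and CD31- libraries in either tissue.

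Abca1 was higher in CD31+Rspo3- than CD31-Rspo3- cells by 2.53 ± 0.33 in colon (adjusted p = 8.80e-06) and 2.52 ± 0.33 in small intestine (adjusted p = 5.79e-06). Fabp5 was higher by 2.06 ± 0.44 in colon (adjusted p = 0.00132) and 3.14 ± 0.46 in small intestine (adjusted p = 2.06e-05). Pltp was higher by 0.93 ± 0.26 in colon (adjusted p = 0.0107), a call lost without library 1 of CD31-Rspo3- cells (0.0737), and gave 0.47 ± 0.26 in small intestine (adjusted p = 0.165). Lpl, known to be made by parenchymal and stromal cells, was lower in colon CD31+Rspo3- cells by 2.27 ± 0.33 (adjusted p = 3.20e-05) and gave -0.80 ± 0.32 in small intestine (adjusted p = 0.0501), which passed without library 3 of CD31+Rspo3- cells (0.0354) and under 5 other settings (adjusted p = 0.0128 to 0.0378). Vldlr did not pass in either tissue, and passed in small intestine at -1.15 without that library (adjusted p = 0.0392).

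Among Rspo3+ cells Pltp was lower in CD31+Rspo3+ than CD31-Rspo3+ cells, with log2 differences of -3.40 ± 0.29 in colon (adjusted p = 2.07e-08) and -5.25 ± 0.32 in small intestine (adjusted p = 1.95e-10). Scarb1 was lower in small intestine (-1.96 ± 0.27, adjusted p = 6.20e-06), and in colon gave -0.61 ± 0.26 (adjusted p = 0.075), or -1.02 without library 1 of CD31+Rspo3+ cells (adjusted p = 0.00341). Lpl took opposite signs, -1.82 ± 0.33 in colon (adjusted p = 0.000216) and 1.35 ± 0.32 in small intestine (adjusted p = 0.00233). Cd36 was higher in CD31+ cells by 1.65 ± 0.54 in colon (adjusted p = 0.0238) and 3.63 ± 0.58 in small intestine (adjusted p = 4.46e-05), and the colon call was lost without library 1 (0.103) or 2 (0.0948) of CD31-Rspo3+ cells or library 1 of CD31+Rspo3+ cells (0.09). It was also lost with only the compared libraries fitted (0.162).

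**Figure D3:**
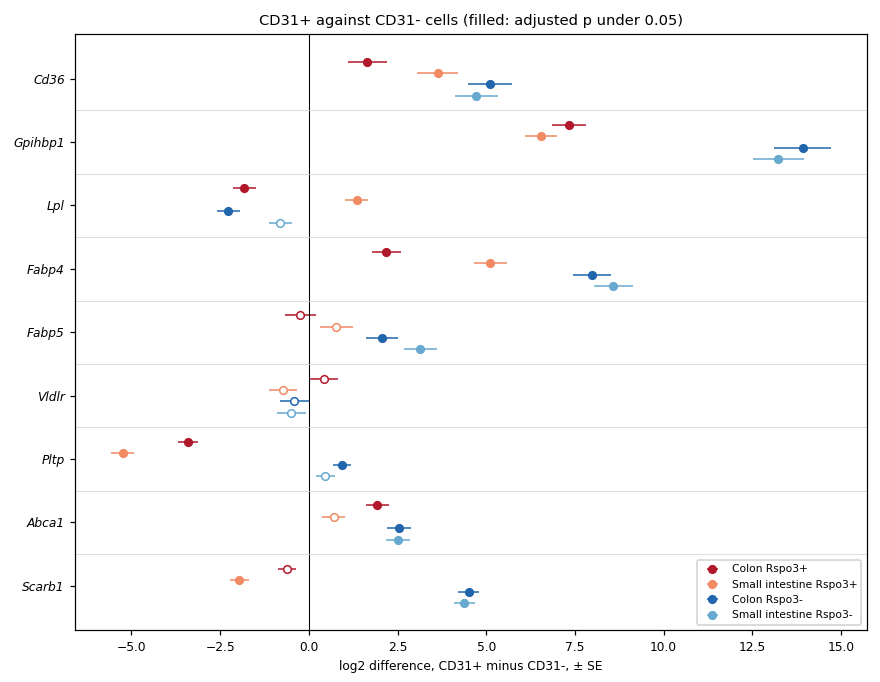
Log2 difference (edgeR, CD31+ minus CD31-, ± SE) of each gene in Rspo3+ and Rspo3- cells of both tissues, filled where the adjusted p was under 0.05. Scarb1 lies at 4.51 and 4.38 among Rspo3- cells of colon and small intestine and left of 0 among Rspo3+ cells, and the Gpihbp1 points among Rspo3- cells depend on a prior count.

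Between tissues, 5 of 9 genes passed in CD31+Rspo3+ cells, Pltp and Scarb1 higher in colon and Lpl, Fabp4 and Vldlr lower, and 7 had no overlap. Of all genes, 6.35% passed, 2.83% were higher, 3.52% were lower and 23.9% had no overlap between libraries. Lpl averaged 47.8 ± 14.6 CPM in colon CD31+Rspo3+ cells and 176 ± 17.3 CPM in small intestinal CD31+Rspo3+ cells (SD), a log2 difference of -1.89 ± 0.33 (adjusted p = 0.0012). Fabp4 averaged 101 ± 23.2 CPM in colon CD31+Rspo3+ cells and 519 ± 86.9 CPM in small intestinal CD31+Rspo3+ cells (-2.36 ± 0.41, adjusted p = 0.00117). Pltp averaged 48.8 ± 6.99 CPM in colon CD31+Rspo3+ cells and 15.6 ± 6.91 CPM in small intestinal CD31+Rspo3+ cells (1.64 ± 0.27, adjusted p = 0.00075). The libraries of the tissues did not overlap for these 3 genes.

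Vldlr averaged 30.6 ± 3.60 CPM in colon CD31+Rspo3+ cells and 86.2 ± 3.74 CPM in small intestinal CD31+Rspo3+ cells (-1.49 ± 0.40, adjusted p = 0.0274), and its call was lost with any 1 of the 6 libraries left out (adjusted p = 0.0635 to 0.109). Scarb1 gave 0.89 ± 0.26 (adjusted p = 0.0475), and lost the call without colon library 1 (0.338) or small intestinal library 1 (0.191) or 2 (0.138). Limma voom, limma on log2(TPM + 1) and a fit of only the compared libraries did not call Scarb1 (adjusted p = 0.0925 to 0.156). Abca1 passed by 5 other settings, higher in colon (adjusted p = 0.0142 to 0.0465), against 0.055 by edgeR with TMM. In CD31+Rspo3- cells Pltp alone of the 9 passed by edgeR, at 774 ± 56.2 CPM in colon CD31+Rspo3- cells and 397 ± 119 CPM in small intestinal CD31+Rspo3- cells (0.96 ± 0.26, adjusted p = 0.0426), and 3 had no overlap. Of all genes in these cells, 4.43% passed, 2.72% were higher, 1.71% were lower and 20% had no overlap between libraries. That call was lost without any of colon libraries 1, 2 and 3 or small intestinal libraries 2 and 3 (adjusted p = 0.0706 to 0.208). It was lost too on log2(TPM + 1) (0.0638) and with only the compared libraries fitted (0.104). Gpihbp1 passed there, lower in colon, by DESeq2, limma voom, limma on log2(TPM + 1) and a fit of only the compared libraries (adjusted p = 0.00231 to 0.0468), against 0.0996 by edgeR with all libraries.

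In CD31-Rspo3+ cells Lpl was higher and Vldlr lower in colon, and 4 of the 9 had no overlap. Of all genes, 7.02% passed, 3.62% were higher, 3.4% were lower and 27.3% had no overlap between libraries. Vldlr averaged 22.7 ± 6.45 CPM in colon CD31-Rspo3+ cells and 142 ± 2.39 CPM in small intestinal CD31-Rspo3+ cells (-2.65 ± 0.41, adjusted p = 0.000467). Lpl averaged 168 ± 25.0 CPM in colon CD31-Rspo3+ cells and 69.1 ± 5.14 CPM in small intestinal CD31-Rspo3+ cells (1.28 ± 0.32, adjusted p = 0.0195), and its call was lost without colon library 1 (0.057) or small intestinal library 1 (0.0545), 2 (0.0845) or 3 (0.0596). In CD31-Rspo3- cells Lpl and Fabp5 were higher in colon, and 6 had no overlap. Of all genes there, 17.6% passed, 8.79% were higher, 8.81% were lower and 39.2% had no overlap between libraries. Lpl averaged 379 ± 96.7 CPM in colon CD31-Rspo3- cells and 194 ± 22.0 CPM in small intestinal CD31-Rspo3- cells (0.97 ± 0.32, adjusted p = 0.0424), and lost the call without any library but colon library 1 (adjusted p = 0.066 to 0.179). DESeq2 size factors ended the Lpl call (0.059) and limma voom that of Fabp5 (0.0904). Fabp5 averaged 28.9 ± 6.36 CPM in colon CD31-Rspo3- cells and 11.1 ± 3.77 CPM in small intestinal CD31-Rspo3- cells (1.37 ± 0.44, adjusted p = 0.0353), and lost it without colon library 1 (0.127) or 2 (0.0726) or small intestinal library 2 (0.16) or 3 (0.0869).

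The CD31 difference itself was compared between tissues, as colon minus small intestine. Among Rspo3+ cells it passed for 4 of the 9 genes, where 3.17% of all genes passed. Lpl gave -3.17 ± 0.46 (adjusted p = 0.000488), Fabp4 -2.93 ± 0.57 (adjusted p = 0.00616), Pltp 1.84 ± 0.38 (adjusted p = 0.00896) and Scarb1 1.35 ± 0.37 (adjusted p = 0.0493). The Scarb1 call was lost in 9 of 12 fits with a library left out (adjusted p = 0.0599 to 0.162) and under 4 other settings (adjusted p = 0.0594 to 0.104).

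Per length, 3 of the 9 genes led in the 8 populations. Gpihbp1 was highest in colon CD31+Rspo3+ cells, at 890.4 ± 124 TPM, followed by Fabp4 at 190.4 ± 43.5 TPM. In small intestinal CD31+Rspo3+ cells Gpihbp1 stood at 1197 ± 208 TPM and Fabp4 at 1007 ± 196 TPM. In CD31+Rspo3- cells Fabp4 led, at 4162 ± 836 TPM in colon and 3982 ± 1967 TPM in small intestine, followed by Pltp in colon (721 ± 50.1 TPM) and Cd36 in small intestine (1258 ± 39.0 TPM). In all 4 CD31- populations the highest of the 9 was Pltp, from 492 ± 14.9 TPM in small intestinal CD31-Rspo3+ cells to 284, 245 and 185 TPM in the libraries of small intestinal CD31-Rspo3- cells.

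**Figure D4:**
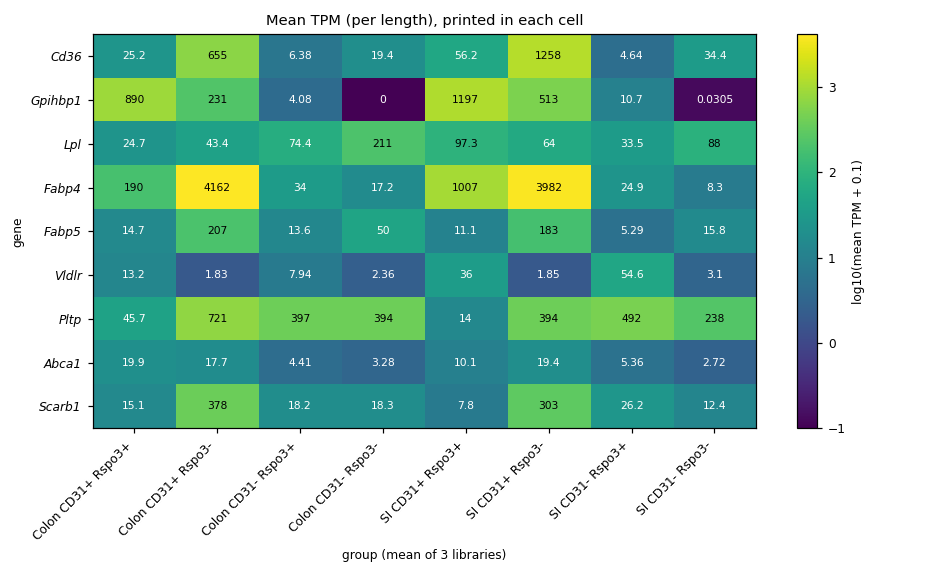
Mean TPM of 3 libraries for each gene (rows) in each group (columns), printed in the cell and coloured by log10 of TPM plus 0.1. Gpihbp1 is the highest value in both CD31+Rspo3+ columns, Fabp4 in both CD31+Rspo3- columns (4162 TPM in colon) and Pltp in all 4 CD31- columns.

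Ordered by mean CPM, Cd36 was highest in small intestinal CD31+Rspo3- cells, then in colon CD31+Rspo3- cells, with no overlap at either step, and neighbours further down all overlapped. Fabp4 and Scarb1 had both CD31+Rspo3- groups at the top, overlapping each other but not the next group. Gpihbp1 overlapped between small intestinal and colon CD31+Rspo3+ cells at the top, and its CD31+Rspo3- groups followed without overlap. Vldlr had 4 separate upper steps, small intestinal CD31-Rspo3+, small intestinal CD31+Rspo3+, colon CD31+Rspo3+ and colon CD31-Rspo3+ cells, above 4 Rspo3- groups whose neighbours overlapped. Lpl was highest in colon CD31-Rspo3- cells, apart from the small intestinal CD31-Rspo3- cells that followed.

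Other genes of lipid handling were counted by list, beside 23.1% of all genes passing in colon CD31+ cells and 20.1% in small intestinal ones. Of 20 regulators of endothelial lipid handling, 1 was higher and 9 lower in colon CD31+Rspo3+ cells (median -0.97), and 2 were higher and 8 lower in small intestinal ones (median -0.26). Tcf15, a transcription factor that with Meox2 drives fatty acid uptake genes in mouse heart endothelium, averaged 13.1 ± 1.15 CPM in colon CD31+Rspo3+ cells and 185 ± 48.6 CPM in colon CD31+Rspo3- cells (log2 difference -3.81 ± 0.29, adjusted p = 1.15e-08). Of 19 tested genes of fatty acid transport and activation, 3 were higher and 3 lower in colon (median -0.83), and 1 was higher and 2 lower in small intestine (median -0.42). Slc27a3, of the fatty acid transport protein family, averaged 1.88 ± 0.342 CPM in colon CD31+Rspo3+ cells and 32.5 ± 5.64 CPM in colon CD31+Rspo3- cells (-4.10 ± 0.43, adjusted p = 5.89e-07). In the small intestine Slc27a3 averaged 0.551 ± 0.360 CPM in small intestinal CD31+Rspo3+ cells and 22.3 ± 2.57 CPM in small intestinal CD31+Rspo3- cells (-5.44 ± 0.48, adjusted p = 6.92e-08).

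Of 17 lipid droplet and lipolysis genes, 1 was higher and 5 lower in colon CD31+Rspo3+ cells (median -0.62), and 2 were higher and 2 lower in small intestinal ones (median -0.35). Lipe, hormone-sensitive lipase, averaged 9.24 ± 2.64 CPM in colon CD31+Rspo3+ cells and 120.1 ± 9.57 CPM in colon CD31+Rspo3- cells (-3.70 ± 0.26, adjusted p = 5.86e-09), and 12.4 ± 1.23 CPM in small intestinal CD31+Rspo3+ cells and 73.4 ± 19.9 CPM in small intestinal CD31+Rspo3- cells (-2.57 ± 0.25, adjusted p = 2.56e-07). Of 16 tested efflux and HDL genes, 2 were higher and 2 lower in colon (median -0.34), and 1 was higher and 4 lower in small intestine (median -0.40). The efflux count in colon and the transport and lipid droplet counts in small intestine were near the share of all genes. Apoe, an apolipoprotein that binds lipoprotein receptors, fell by 2.27 ± 0.45 (adjusted p = 0.000847) in colon and by 2.01 ± 0.44 (adjusted p = 0.00248) in small intestine on the log2 scale. Of 16 lipoprotein receptor genes, 2 were higher and 4 lower in colon (median -0.15), and 4 were higher and 1 lower in small intestine (median 0.40).

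Sterol synthesis genes and targets of SREBP2, the transcription factor that answers to low cell cholesterol, were counted as another list. Of 18 genes, 0 were higher and 2 lower by edgeR in colon CD31+Rspo3+ cells (median 0.09), and 12 were higher and 0 lower by edgeR in small intestinal ones (median 1.32, against 0 for all genes). Over the other settings and left-out libraries the small intestinal count of higher genes was 8 to 12. Srebf2, the gene of SREBP2, averaged 201 ± 23.5 CPM in small intestinal CD31+Rspo3+ cells and 71.2 ± 25.0 CPM in small intestinal CD31+Rspo3- cells (1.497 ± 0.21, adjusted p = 2.65e-05). Tested as a difference between tissues in the Rspo3 difference, 2 of the 18 passed, both lower in colon, where 1.93% of all genes passed.

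**Figure D5:**
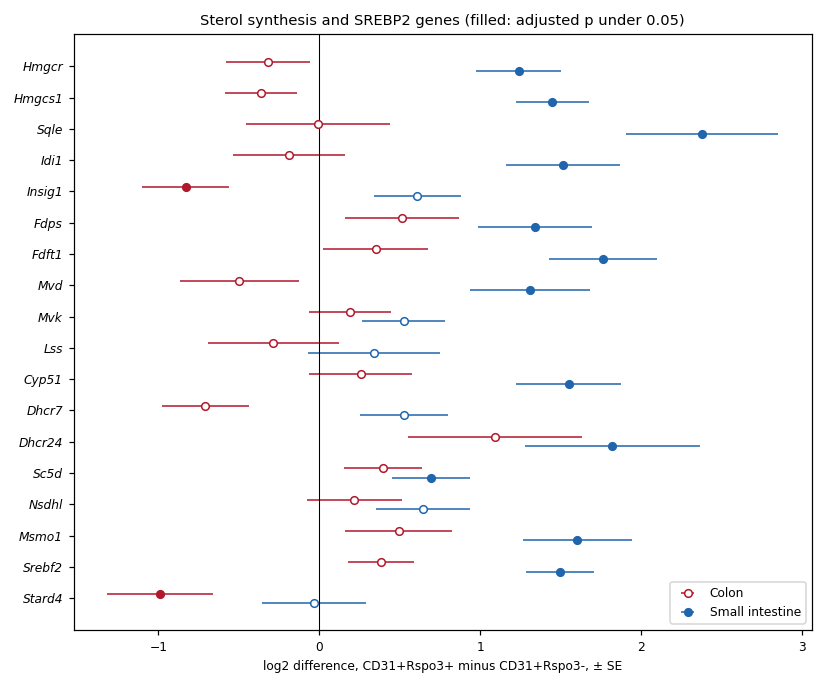
Log2 difference (edgeR, CD31+Rspo3+ minus CD31+Rspo3-, ± SE) of 18 sterol synthesis and SREBP2 target genes in colon and small intestine, filled where the adjusted p was under 0.05. In the small intestine 12 of 18 points are filled, all right of 0, and in colon 2 are filled, both left of 0.

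In CD31-Rspo3+ cells of the small intestine 10 of 19 tested genes of fatty acid transport and activation were lower and 2 higher (median -2.56, against 0.108 for all genes), and 12 of 18 fatty acid oxidation genes were lower and 2 higher (median -0.77), beside 30.4% of all genes. Apoa1, an apolipoprotein made by enterocytes, averaged 92.1 ± 59.7 CPM in small intestinal CD31-Rspo3+ cells and 6065 ± 2039 CPM in small intestinal CD31-Rspo3- cells. The epithelial marker sum given above moved the same way, and its part in the result was not tested. In colon 2 of 19 transport genes were lower and 0 higher by edgeR (median -0.26), near the share of all genes. Epithelial sums in colon were 59.3 to 2119.8 CPM in CD31-Rspo3+ libraries and 1460.2 to 5541 CPM in CD31-Rspo3- libraries. Of 8 caveolar genes 2 were lower and 0 higher by edgeR in colon CD31-Rspo3+ cells (median 0.04), where 9.14% of all genes passed, and 5 were higher and 0 lower by edgeR in small intestinal ones (median 0.83). Cav1, which encodes the main caveolar coat protein, averaged 205 ± 16.4 CPM in colon CD31-Rspo3+ cells and 655 ± 111 CPM in colon CD31-Rspo3- cells (-1.68 ± 0.20, adjusted p = 2.74e-05), beside the lower smooth muscle sums given above, whose part was not tested. In small intestine Cav1 gave 0.23 ± 0.20, adjusted p = 0.407.

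Among Rspo3- cells 11 of 20 endothelial lipid regulators were higher and 2 lower in colon CD31+ cells (median 1.08), and 12 were higher and 3 lower in small intestinal ones (median 1.29), beside 32.5% and 41.6% of all genes. Rbp7, a retinol-binding protein, averaged 168 ± 31.6 CPM in colon CD31+Rspo3- cells and 0.513 ± 0.275 CPM in colon CD31-Rspo3- cells (8.42 ± 0.61, adjusted p = 4.34e-09), and 55.7 ± 20.4 CPM in small intestinal CD31+Rspo3- cells and 0.905 ± 0.542 CPM in small intestinal CD31-Rspo3- cells (6.05 ± 0.56, adjusted p = 6.02e-08). Lrp1, a large endocytic receptor for lipoprotein remnants, gave -2.98 ± 0.50 in colon (adjusted p = 0.000132) and -3.69 ± 0.52 in small intestine (adjusted p = 1.12e-05).

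Likeness was measured as Pearson's r of log2 CPM over the 24 libraries, which share their 8 groups, among 9759 genes of at least 10 CPM on average. Gpihbp1 was most like Cldn5 (r = 0.990), Pltp like Igfbp7 (r = 0.986), Scarb1 like Plscr2 (r = 0.983) and Fabp4 like Thrsp (r = 0.980). Cd36 was most like Tmem252 (r = 0.971), Fabp5 like Rflnb (r = 0.955), Vldlr like Tgfb3 (r = 0.943) and Abca1 like Maml2 (r = 0.929). Lpl had the least similar best match, Col27a1 (r = 0.826). Among the 9 genes r ran from -0.826 between Fabp5 and Vldlr to 0.873 between Abca1 and Gpihbp1, and Cd36 stood at 0.826 with Fabp4.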

How the data were processed

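RNA was sequenced from 24 libraries, 3 in each of 8 groups set by tissue, CD31 sign and the sign of the Rspo3 reporter, as the labels give them. Library numbers 1 to 3 follow the table's column order within a group and only name libraries. The deposited tables hold estimated counts per gene and log2(TPM + 1) values, made by the authors. The submitters' processing notes name Salmon 1.3.0, R 4.0.1 and the mm10 build. For the annotation release and read filters, nothing is given in the sources used. Gene symbols were found for 54096 of 54418 gene IDs. The members and gene lists were chosen with earlier results of these data known. After seeing the data, 1 gene was taken out of the lists of sterol genes and of lipoprotein receptors and is not reported here.

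Estimated counts were rounded to whole numbers, filtered with filterByExpr (19050 genes kept), scaled by TMM and fitted over all 8 groups with edgeR's quasi-likelihood test (edgeR 4.0.16, R 4.3.3), and p-values were adjusted by the Benjamini-Hochberg method over all genes tested. A call is an adjusted p under 0.05. Interactions were tested as contrasts in the same fit. The steps were tested on simulated data modelled on the small intestinal CD31+ groups alone, with less spread between libraries than in the fit of all groups. That test therefore cannot show how reliable the calls given here are. TPM was taken back from the deposited log2 values. Alternatives were DESeq2 size factors, no filter, DESeq2 1.42.0, limma 3.58.1 voom, limma on the deposited log2(TPM + 1) values, only the compared libraries, and each library left out. Leaving out both colon libraries 3 with high leukocyte or fibroblast sums was chosen after seeing the data.

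From each list the genes named were taken from the 2 smallest adjusted p in each direction in the Rspo3 comparisons and the CD31 comparisons of Rspo3- cells, among called genes of at least 10 CPM in the higher group. Promoters of Gpihbp1, Lpl, Fabp4, Fabp5 and Scarb1 were not analysed here.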

Additional observations from a re-analysis of the deposited data

Results flagged for a closer look

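For several genes an effect differed between groups by a test of the difference itself, an interaction contrast in edgeR's quasi-likelihood fit, given here on the log2 scale with its SE.

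The Rspo3 difference in CD31+ cells minus that in CD31- cells of colon was -3.45 ± 0.76 (adjusted p = 0.00302) for Cd36, -5.79 ± 0.60 (adjusted p = 1.09e-06) for Fabp4 and -2.30 ± 0.62 (adjusted p = 0.0131) for Fabp5. In the same contrast Pltp gave -4.34 ± 0.39 (adjusted p = 1.99e-07) and Scarb1 -5.12 ± 0.38 (adjusted p = 4.45e-08). Gpihbp1 gave -6.57 ± 1.23 (adjusted p = 0.000916), a size that depends on a prior count because a group was at 0.

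In small intestine that contrast was -3.47 ± 0.58 (adjusted p = 0.00018) for Fabp4, -2.36 ± 0.63 (adjusted p = 0.00931) for Fabp5 and -1.82 ± 0.45 (adjusted p = 0.00542) for Abca1. Pltp gave -5.72 ± 0.40 (adjusted p = 7.07e-09), Scarb1 -6.34 ± 0.39 (adjusted p = 1.80e-09) and Lpl 2.16 ± 0.46 (adjusted p = 0.00156). Gpihbp1 gave -6.68 ± 0.92 (adjusted p = 3.71e-05), again with a group at 1 count.

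Between tissues, colon minus small intestine, the Rspo3 difference of Fabp4 in CD31+ cells was -2.52 ± 0.56 (adjusted p = 0.0203) and that of Vldlr in CD31- cells -1.97 ± 0.57 (adjusted p = 0.0372). The CD31 difference among Rspo3+ cells was -3.17 ± 0.46 (adjusted p = 0.000488) for Lpl, -2.93 ± 0.57 (adjusted p = 0.00616) for Fabp4, 1.84 ± 0.38 (adjusted p = 0.00896) for Pltp and 1.35 ± 0.37 (adjusted p = 0.0493) for Scarb1.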

How the results depend on the processing

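No paired analysis was possible because the columns carry tissue, CD31 and RSPO3 signs but no replicate numbers of the labels, and column order was not used to pair libraries. With 1 library left out, the 9 genes gave 2 to 2 higher and 5 to 6 lower in colon and 1 to 2 higher and 5 to 6 lower in small intestinal CD31+ cells for the Rspo3 difference, and 2 to 3 higher and 0 to 2 lower in colon and 5 to 6 higher and 2 to 3 lower in small intestinal CD31- cells. The CD31 difference gave 3 to 4 higher and 2 to 3 lower in colon and 4 to 5 higher and 2 to 2 lower in small intestine among Rspo3+ cells, and 6 to 7 higher and 1 to 1 lower and 6 to 6 higher and 0 to 2 lower among Rspo3- cells. The tissue difference gave 1 to 2 higher and 2 to 2 lower in CD31+Rspo3+, 0 to 1 higher and 0 to 1 lower in CD31+Rspo3-, 0 to 2 higher and 1 to 2 lower in CD31-Rspo3+ and 0 to 1 higher and 0 to 0 lower in CD31-Rspo3- cells. The tissue difference of the Rspo3 difference gave 0 to 0 higher and 0 to 2 lower in CD31+ and 0 to 1 higher and 0 to 1 lower in CD31- cells, that of the CD31 difference 1 to 2 higher and 2 to 2 lower in Rspo3+ and 0 to 0 higher and 0 to 1 lower in Rspo3- cells, and the CD31 dependence of the Rspo3 difference 0 to 0 higher and 6 to 6 lower in colon and 1 to 1 higher and 6 to 6 lower in small intestine.

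Other settings moved these counts. For the Rspo3 difference in colon CD31- cells the count lower was 1 by voom and with only the compared libraries, in place of 2. For the CD31 difference in small intestinal Rspo3- cells it was 1, in place of 0, with DESeq2 size factors, no filter, DESeq2, voom or only the compared libraries. Between tissues in CD31+Rspo3+ cells the count higher was 1 on log2(TPM + 1), in place of 2. In CD31+Rspo3- cells it was 0, in place of 1, on log2(TPM + 1), with only the compared libraries and without both colon libraries 3, and the count lower was 1, in place of 0, in these and by DESeq2 and voom. In CD31-Rspo3+ cells the count higher was 2, in place of 1, with no filter and by DESeq2, and the count lower 2, in place of 1, on log2(TPM + 1) and without both colon libraries 3. In CD31-Rspo3- cells the count higher was 1, in place of 2, with DESeq2 size factors and voom, and the count lower 1, in place of 0, by voom. For the tissue difference of the Rspo3 difference in CD31- cells the count higher was 1 by DESeq2, in place of 0, and the count lower 2 on log2(TPM + 1) and 0 without both colon libraries 3, in place of 1. For that of the CD31 difference the count higher in Rspo3+ cells was 1, in place of 2, with DESeq2 size factors, on log2(TPM + 1) and without both colon libraries 3, and the count lower in Rspo3- cells 1, in place of 0, by DESeq2, voom, on log2(TPM + 1) and without both colon libraries 3. Gpihbp1 reversed in the tissue difference of the Rspo3 difference in CD31- cells, at -1.20 on log2(TPM + 1) (adjusted p = 0.0401) against 0.60 ± 0.81 by edgeR (adjusted p = 0.725), and the cause was not tested.

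Over all genes, the Rspo3 difference in colon CD31- cells had 2645 calls by DESeq2, 3306 on log2(TPM + 1) (439 higher and 2867 lower) and 1152 with only the compared libraries (487 higher and 665 lower), in place of 1741 (914 higher and 827 lower). Between tissues DESeq2 called 1869 in CD31+Rspo3+ cells, 1544 in CD31+Rspo3- cells and 2113 in CD31-Rspo3+ cells, in place of 1209, 844 and 1337. In CD31-Rspo3- cells log2(TPM + 1) gave 5330 (3696 higher and 1634 lower) in place of 3353 (1675 higher and 1678 lower). The split also moved on log2(TPM + 1) for CD31+Rspo3- cells (415 higher and 585 lower, in place of 518 higher and 326 lower), CD31-Rspo3+ cells (432 higher and 897 lower, in place of 689 higher and 648 lower) and the CD31 difference in colon Rspo3+ cells (4069 higher and 2504 lower, in place of 2839 higher and 3475 lower), small intestinal Rspo3+ cells (4002 higher and 3080 lower, in place of 3211 higher and 3739 lower) and small intestinal Rspo3- cells (5207 higher and 3575 lower, in place of 3823 higher and 4109 lower). With only the compared libraries it moved for CD31+Rspo3- cells between tissues (320 calls, 144 higher and 176 lower) and small intestinal CD31- cells by Rspo3 (2559 higher and 3742 lower, in place of 3064 higher and 2732 lower). That last split turned as well with DESeq2 size factors (2329 higher and 3054 lower) and by DESeq2 (2651 higher and 3341 lower). With DESeq2 size factors the median log2 difference of all genes in that comparison was 0, in place of 0.108, and Abca1 there gave 0.82 (adjusted p = 0.0547).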
